A study of Mus musculus with 4 samples.

Results

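The mitochondrial genome of the mouse carries 37 genes, and all 37 were taken from the deposited count table by their chromosome, MT, out of 54532 genes in the table. They are 13 protein-coding genes, 2 ribosomal RNA (rRNA) genes and 22 transfer RNA (tRNA) genes. Their RNA was measured in neutrophils from the bone marrow of WT mice, in 4 RNA-seq libraries. The 2 DMSO libraries came from cells given DMSO, a common solvent, and the 2 Aβ40 libraries from cells given 20 µg/ml of amyloid-beta 40, a peptide that builds up in vessel walls and plaques, for 4 h. The labels give no dose or time for DMSO, no strain or age for the mice, and no animal or culture of origin for each library. The p-values therefore cover only the spread between libraries, part or all of which may be technical. The series' description asks how Aβ40 leads to neutrophil extracellular traps, webs of chromatin and granule proteins that these cells release.

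Mitochondrial DNA is a small circle that is copied into long RNAs from both strands, and the tRNAs that lie between the other genes serve as the points at which the messages are cut free. Its proteins are core subunits of respiratory complexes I, III, IV and V, which pass electrons to oxygen and make ATP, and its rRNAs and tRNAs serve only the ribosomes inside mitochondria. Every other protein of the organelle comes from nuclear genes. Mature neutrophils hold few mitochondria and take most of their ATP from glycolysis, and mitochondrial DNA has been described as a component of some extracellular traps.

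Total counts ran from 17212264 (DMSO 2) to 19524125 (DMSO 1), so that 1 count was worth 0.0523 to 0.0585 CPM, counts scaled to library size with edgeR's TMM factors. All 15 neutrophil markers were detected, with summed levels of 104185 to 145118 CPM in the DMSO libraries and 142092 to 149659 CPM in the Aβ40 libraries. Markers of other marrow cells were present too, and several lists differed between the groups. By edgeR's quasi-likelihood test at an adjusted p under 0.05, 0.126% of all tested genes were called higher with Aβ40. Of the markers, 6 of 14 for B cells, 1 of 10 for eosinophils and 1 of 14 tested for T and NK cells rose. DESeq2 called 95 genes higher in all, of 21760 given a fold change, and 12, 8 and 1 markers of these lists. Their summed levels with DMSO and with Aβ40 were 584 to 669 and 1312 to 1323 CPM for B cells, 1405 to 1687 and 3684 to 3742 CPM for eosinophils, and 77.5 to 79.2 and 127 to 135 CPM for T and NK cells. Monocyte markers summed to 2655 to 2747 and 3107 to 3639 CPM and dendritic cell markers to 790 to 798 and 1063 to 1244 CPM. The quasi-likelihood test called 0 of 12 in each list. At an unadjusted p under 0.05 in that test, as 12.2% of all tested genes were, lay 4 and 5, and DESeq2 called 1 and 2. Erythroid markers (2132 to 5056 and 3510 to 3660 CPM, 3 of 9 tested above 0) and megakaryocyte markers (31.0 to 34.7 and 29.2 to 30.5 CPM, 0 of 4 above 0) were not higher as lists. The part of these cells in the mitochondrial values was not tested.

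Mitochondrial RNA made up a small share of each library and was on average higher with Aβ40 in every class. For the 37 genes as a whole the difference between groups was close in size to the difference between libraries of 1 group. The share of all counts that fell on the 37 genes was 0.822% and 1.15% in DMSO 1 and 2, and 1.71% and 1.21% in Aβ40 1 and 2. The groups did not overlap, but Aβ40 2 exceeded DMSO 2 by far less than the DMSO libraries differed from each other. The means were 0.986% ± 0.233 with DMSO and 1.46% ± 0.353 with Aβ40 (SD, n = 2 each), a difference of 0.471 percentage points, which was 0.221 without Aβ40 1 and 0.720 without Aβ40 2. The exact 95% binomial intervals of the 4 shares were at most 0.00604 points to either side, and cover counting error only. In bulk RNA, fewer cells of a type, fewer mitochondria per cell and less RNA per cell cannot be told apart.

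Protein-coding genes held 0.389% and 0.784% of the counts in DMSO 1 and 2, and 1.17% and 0.742% in Aβ40 1 and 2. By share these groups overlapped, because DMSO 2 lay above Aβ40 2. In TMM-scaled CPM the coding sums were 4067 and 7256 with DMSO and 12141 and 7440 with Aβ40. On that scale the groups did not overlap, with Aβ40 2 just above DMSO 2. The 2 rRNAs held 0.430% and 0.363% with DMSO against 0.526% and 0.459% with Aβ40. The 22 tRNA genes together held 0.00315% and 0.00363% with DMSO against 0.00633% and 0.00594% with Aβ40. Both RNA classes were higher in each Aβ40 library than in each DMSO library, and the tRNAs had the largest gap relative to their spread within groups. The balance between messages and rRNA was unlike the others in DMSO 1, which had 0.903 coding counts per rRNA count, where DMSO 2 had 2.16, Aβ40 1 had 2.23 and Aβ40 2 had 1.62.

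No mitochondrial gene passed the test of Aβ40 against DMSO at an adjusted p under 0.05 (edgeR's quasi-likelihood test, Benjamini-Hochberg over all 13479 genes tested). In that test 0.126% of all genes were called higher (17 genes) and 0% lower. Of the 37 mitochondrial genes, 18 had enough counts to be tested: 11 of 13 coding genes, both rRNAs and 5 of 22 tRNAs. Their adjusted p-values ran from 0.137 to 0.975, and 7 of the 18 had an unadjusted p under 0.05, all in the direction of Aβ40, where 6.51% of all tested genes did. The log2 fold change was above 0 in 17 of 18, beside 51.1% of all tested genes, and both Aβ40 libraries exceeded both DMSO libraries for 11 of 18, beside 23.2% of all tested genes. The median log2 fold change of the 11 tested coding genes was 0.70, and that of all tested genes was 0.01.

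The count of calls turned on single libraries and on the test. With DMSO 1 left out, 6 mitochondrial genes were called (mt-Co1, mt-Co3, mt-Rnr1, mt-Rnr2, mt-Tc and mt-Tn) among 1276 genes in all, and with DMSO 2 left out, 11 were called among 1024. These fits have a lone DMSO sample that is assumed to vary like the Aβ40 samples. With Aβ40 1 or Aβ40 2 left out, no gene of any chromosome was called. With all 4 libraries, DESeq2 and edgeR's likelihood ratio test each called 2 mitochondrial genes, mt-Tc and mt-Tn. In all, DESeq2 called 132 genes, of 21760 given a fold change, and the likelihood ratio test 221 of 13479. DESeq2 gave some of the 21760 no adjusted p, mt-Tw and mt-Tl1 among them.

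**Figure D1:**
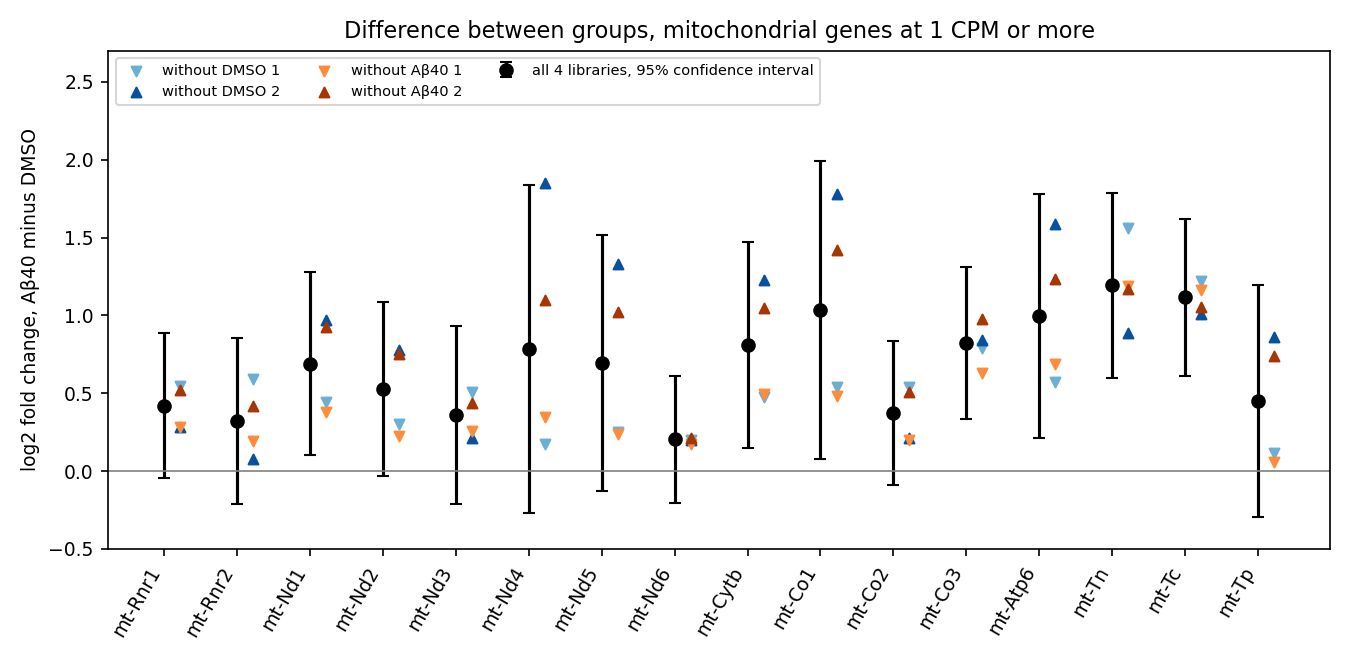
Log2 fold change of Aβ40 over DMSO (vertical axis) for mitochondrial genes whose mean was 1 CPM or more. Black points are the edgeR quasi-likelihood fit of all 4 libraries with 95% confidence intervals, and coloured triangles are the fits without 1 library. Every point lies above 0, and with all libraries mt-Tn and mt-Tc (1.19 and 1.12) lie above all coding genes.

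Per unit length, the mitochondrial genes spanned a wide range of levels. The mean deposited FPKM (fragments scaled to gene length and library size) over the 4 libraries was 2067 for mt-Co1, 1858 for mt-Rnr2, 1564 for mt-Rnr1, 1534 for mt-Nd6, 1041 for mt-Cytb and 1030 for mt-Nd1. Next came mt-Nd2 at 535, mt-Nd4 at 330 and mt-Nd5 at 203. The order among the first 6 genes is not firm, since mt-Co1 alone ran from 806 FPKM in DMSO 1 to 3648 FPKM in Aβ40 1. Far below these lay mt-Co2 at 62.5, mt-Co3 at 30.2, mt-Nd3 at 28.3 and mt-Atp6 at 25.3 FPKM, and mt-Nd4l and mt-Atp8 were at 0.74 and 0.19 FPKM. The low genes lie side by side in the genome, from mt-Co2 (MT:7013-7696) to mt-Nd4l (MT:9877-10173), all on the plus strand.

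**Figure D2:**
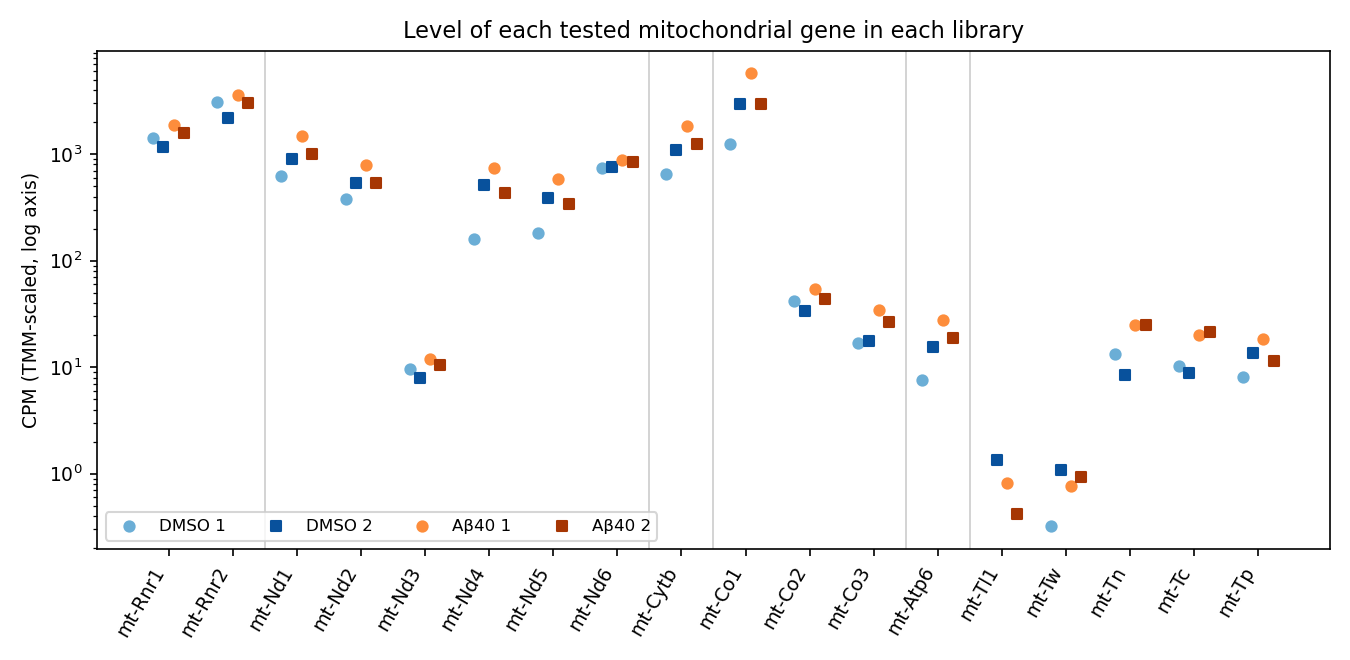
CPM on a log axis for the 18 tested mitochondrial genes in the 4 libraries, each point 1 library. Among these genes the only value of 0, which is not drawn, is mt-Tl1 in DMSO 1. CPM is not scaled by gene length, so the plot compares libraries within a gene, and DMSO 1 is the lowest point for 9 of the 11 tested coding genes.

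Of these low genes, mt-Co2, mt-Co3, mt-Nd3, mt-Atp6 and mt-Nd4l have near-identical copies in the nuclear genome, and mt-Atp8 has none among the annotated transcripts. A run of 7 unprocessed pseudogenes at chr1:24611535-24616197 (GRCm38, 4663 bases, minus strand) repeats the stretch from the last part of mt-Co1 to the first part of mt-Nd4, and 5 of the 7 alignments had no difference. Of all 100-base windows of a mitochondrial gene, the share also present in an annotated nuclear transcript was 99.9% for mt-Co3, 99.5% for mt-Co2, 99.5% for mt-Atp6, 98.5% for mt-Nd4l and 97.6% for mt-Nd3. It was 60.8% for mt-Nd4, 30.8% for mt-Co1 and 3.19% for mt-Nd2. For mt-Nd1, mt-Nd5, mt-Nd6, mt-Cytb, mt-Atp8 and both rRNAs it was 0%. mt-Atp8 lies largely between mt-Co2 and mt-Atp6, whose copies are Gm28661 (chr1:24614885-24615565) and Gm10925 (chr1:24613974-24614651). Only annotated transcripts were searched, so the 0% of mt-Atp8 says nothing of the stretch between these copies. How reads that match 2 places were counted is not given in the sources used here.

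**Figure D3:**
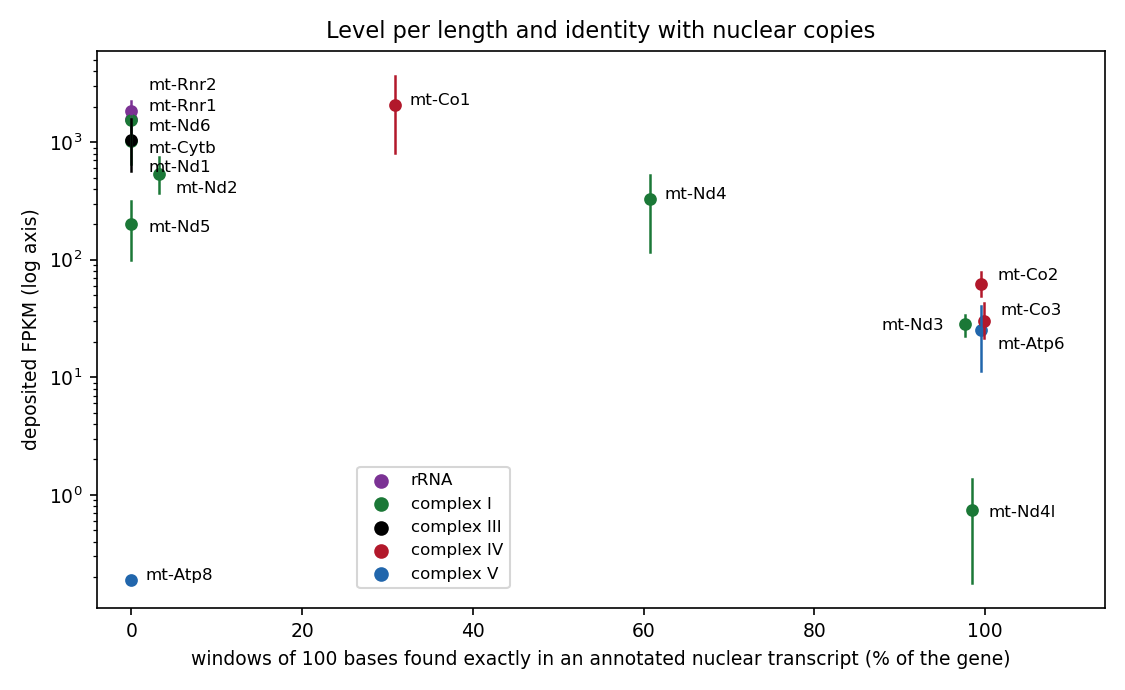
Mean FPKM of each mitochondrial coding or rRNA gene (vertical log axis, with the line spanning the libraries with a value above 0) against the percentage of its 100-base windows found unchanged in a nuclear transcript. The 5 genes at 97.6% or more lie at or below 62.5 FPKM, and those at 0% lie at or above 203 FPKM, apart from mt-Atp8 at 0.19. The 0% of mt-Atp8 covers annotated transcripts only.

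The stretches below show how little separates a mitochondrial gene from its copy. They come from GENCODE M21 transcripts, run 5′ to 3′, and have in capitals the bases that differ in a copy. The first 60 bases of mt-Atp6 and of Gm10925, 100% identical over 678 bases, have none. The first 60 bases of mt-Nd3 and Gm28438 hold their only difference, T3C, counted from the first base of mt-Nd3. In mt-Co1 the bases shown are 1063 to 1122, where Gm29216 carries A1066T, its only difference in 483 bases, and Gm13340, on chromosome 2, differs at another base.
mt-Atp6: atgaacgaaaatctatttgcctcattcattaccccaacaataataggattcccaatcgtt
Gm10925: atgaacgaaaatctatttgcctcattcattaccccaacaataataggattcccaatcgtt
mt-Nd3: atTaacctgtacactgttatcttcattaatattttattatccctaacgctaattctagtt
Gm28438: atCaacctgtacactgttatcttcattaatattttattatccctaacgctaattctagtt
mt-Co1: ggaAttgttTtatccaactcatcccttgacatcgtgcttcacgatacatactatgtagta
Gm29216: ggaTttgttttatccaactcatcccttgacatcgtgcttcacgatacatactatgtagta
Gm13340: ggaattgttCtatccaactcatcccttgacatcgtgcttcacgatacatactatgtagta

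The copies of mt-Atp6, mt-Co2 and mt-Co3 had counts close to those of the mitochondrial genes, and the copies of mt-Co1, mt-Nd3 and mt-Nd4 had far fewer. Gm10925 had 161, 290, 452 and 316 counts in DMSO 1, DMSO 2, Aβ40 1 and Aβ40 2, where mt-Atp6 had 143, 290, 474 and 358. The ratio of mt-Atp6 to its copy was thus 0.888, 1.00, 1.05 and 1.13, and both were lowest in DMSO 1 and highest in Aβ40 1. Gm28661, the copy of mt-Co2, had 714, 518, 672 and 812 counts, and the mitochondrial gene had 1.02 to 1.38 counts for each of these. Gm28437, the copy of mt-Co3, had 208, 308, 477 and 346 counts, at a ratio of 1.06 to 1.52. Of the other copies, Gm29216 (part of mt-Co1) had 254, 229, 436 and 499 counts, Gm28438 16, 12, 30 and 33, where mt-Nd3 had 178, 146, 204 and 199, Gm28439 (mt-Nd4) 9, 15, 34 and 22, and Gm13340 (mt-Co1) 1, 11, 20 and 8.

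The list of nuclear copies had 12 genes, of which 9 were tested, with a median log2 fold change of 0.83 and all 9 above 0. None was called at an adjusted p under 0.05 by edgeR's quasi-likelihood test. An unadjusted p under 0.05 was reached by 3, and by 12.2% of all tested genes. DESeq2 and the likelihood ratio test each called 1, Gm29216. The copies with a value nearest the threshold were Gm29216 (log2 fold change 0.99, SE 0.21, adjusted p = 0.175) and Gm28437 (0.73, SE 0.29, adjusted p = 0.372). The pseudogenes Gm10221 and Gm11478, also in the list, aligned to no mitochondrial gene at 90% identity over 100 bases, and their log2 fold changes were 0.15 and 0.17. When the counts of the chromosome 1 copies were added to their mitochondrial genes, an alternative chosen after seeing the data, the median of the coding genes was 0.74 and again no mitochondrial gene was called.

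Complex I takes electrons from NADH, and 7 of its membrane-bound core subunits are mitochondrial. Of these, 6 were tested, with a median log2 fold change of 0.61, and none passed. The summed share of counts was 0.201% and 0.335% with DMSO and 0.431% and 0.315% with Aβ40, so by share DMSO 2 exceeded Aβ40 2. In TMM-scaled CPM the sums were 2101 and 3104 with DMSO and 4463 and 3157 with Aβ40. On that scale Aβ40 2 lay slightly above DMSO 2. Transcripts of mt-Nd1 (MT:2751-3707), which forms part of the ubiquinone site, were at 622 and 904 CPM with DMSO and 1467 and 994 CPM with Aβ40. The groups did not overlap, with a gap between DMSO 2 and Aβ40 2 that was smaller than the gap within either group, and the log2 fold change was 0.69 (SE 0.26, adjusted p = 0.359). Transcripts of mt-Nd2 (MT:3914-4951), a subunit of the proton-pumping arm, were at 383 and 537 CPM against 786 and 538 CPM, for 0.52 (SE 0.25, adjusted p = 0.431). DMSO 2 and Aβ40 2 had nearly the same mt-Nd2 level. Without single libraries the log2 fold change of mt-Nd1 ran from 0.38 to 0.97 and that of mt-Nd2 from 0.22 to 0.77, lowest without Aβ40 1 and highest without DMSO 2.

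The other pumping subunits of complex I, mt-Nd4 (MT:10167-11544) and mt-Nd5 (MT:11742-13565), differed most between libraries. mt-Nd4 was at 160 and 516 CPM with DMSO and at 734 and 431 CPM with Aβ40. DMSO 1 stood apart at less than any other library and DMSO 2 lay above Aβ40 2, with a log2 fold change of 0.78 (SE 0.47, adjusted p = 0.529) that was 0.17 without DMSO 1, 0.35 without Aβ40 1 and 1.85 without DMSO 2. mt-Nd5 was at 182 and 389 CPM against 588 and 338 CPM, and its log2 fold change of 0.70 (SE 0.36, adjusted p = 0.473) was 0.25 without DMSO 1, 0.24 without Aβ40 1 and 1.33 without DMSO 2. In both genes the groups overlapped.

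mt-Nd6 (MT:13552-14070) is the only protein-coding gene on the minus strand, against 12 on the plus strand, and was the steadiest coding gene. It was at 743 and 750 CPM with DMSO and 876 and 845 CPM with Aβ40. Both groups were tight and did not overlap, and the log2 fold change was 0.20 (SE 0.18, adjusted p = 0.673). Its 3′ end overlaps that of mt-Nd5 on the other strand by 14 bases, and whether the libraries or counts kept the strand is not given in the sources used here. Reads from RNA opposite to mt-Nd5, mt-Cytb or other genes could then not be told apart from theirs.

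mt-Nd3 (MT:9459-9806), a small subunit at the joint of the enzyme's arms, was at 9.54 and 7.85 CPM with DMSO and 11.9 and 10.4 CPM with Aβ40, for a log2 fold change of 0.36 (SE 0.25, adjusted p = 0.596). The groups did not overlap, but Aβ40 2 lay close to DMSO 1, and the log2 fold change was 0.21 without DMSO 2 and 0.51 without DMSO 1. mt-Nd4l, whose last bases are shared with mt-Nd4, had 1, 3, 7 and 5 counts in DMSO 1, DMSO 2, Aβ40 1 and Aβ40 2 and was not tested. Both genes are almost wholly repeated in the chromosome 1 copies.

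Complex III, which passes electrons to cytochrome c, has 1 mitochondrial subunit, cytochrome b, encoded by mt-Cytb (MT:14145-15288). Its transcripts were at 649 and 1101 CPM with DMSO and 1829 and 1236 CPM with Aβ40. Both Aβ40 libraries exceeded both DMSO libraries, although DMSO 2 was nearer to Aβ40 2 than to DMSO 1. The log2 fold change was 0.81 (SE 0.29, adjusted p = 0.350), 1.23 when DMSO 2 was left out and 0.48 when DMSO 1 was.

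Complex IV, cytochrome c oxidase, reduces oxygen, and its catalytic core is made of the products of mt-Co1, mt-Co2 and mt-Co3. mt-Co1 (MT:5328-6872), which holds the site where oxygen binds, was at 1251 and 2985 CPM with DMSO and at 5732 and 2957 CPM with Aβ40. The 2 groups overlapped, since DMSO 2 and Aβ40 2 were nearly equal, and the library with the highest value and the library with the lowest set the difference. The log2 fold change was 1.04 (SE 0.42, 95% interval 0.08 to 1.99, adjusted p = 0.384), against 0.54 without DMSO 1 and 1.78 without DMSO 2. With Aβ40 1 left out it was 0.48.

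mt-Co2, which carries the copper centre that takes electrons from cytochrome c, was at 41.8 and 33.4 CPM with DMSO and 54.2 and 43.3 CPM with Aβ40, for a log2 fold change of 0.37 (SE 0.20, adjusted p = 0.489) that was 0.20 without Aβ40 1 and 0.54 without DMSO 1. mt-Co3 (MT:8607-9390) was at 16.9 and 17.6 CPM with DMSO and 34.5 and 26.8 CPM with Aβ40. Neither gene's groups overlapped, and mt-Co3 had the tightest DMSO pair of the complex. Its log2 fold change was 0.82 (SE 0.22, adjusted p = 0.263), and the unadjusted p placed it at rank 203 of the 13479 genes. Its reads are open to the chromosome 1 copy over nearly all their length.

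Complex V, the ATP synthase, has a proton channel built in part from the products of mt-Atp6 and mt-Atp8. mt-Atp6 (MT:7927-8607) was at 7.66 and 15.6 CPM with DMSO and 27.7 and 18.7 CPM with Aβ40. The groups did not overlap, and the log2 fold change was 1.00 (SE 0.35, adjusted p = 0.337), or 1.58 without DMSO 2 and 0.57 without DMSO 1. mt-Atp8, which shares 43 bases with mt-Atp6, had 0, 0, 0 and 3 counts. A count of 0 allows up to 3 counts, or 0.161 CPM in each DMSO library and 0.175 CPM in Aβ40 1.

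The 2 rRNAs behaved unlike the messages within the DMSO pair. mt-Rnr1 (MT:70-1024), the RNA of the small ribosomal subunit, was at 1405 and 1178 CPM with DMSO and 1878 and 1576 CPM with Aβ40, for a log2 fold change of 0.42 (SE 0.21, adjusted p = 0.448). mt-Rnr2 (MT:1094-2675), the RNA of the large subunit, was at 3097 and 2184 CPM against 3568 and 3027 CPM, for 0.32 (SE 0.24, adjusted p = 0.614). For mt-Rnr1 the groups did not overlap, and for mt-Rnr2 DMSO 1 lay above Aβ40 2. The log2 fold change of mt-Rnr2 was 0.08 without DMSO 2 and 0.59 without DMSO 1, and that of mt-Rnr1 was 0.28 and 0.55. In both genes DMSO 2 was the lowest library, whereas DMSO 1 was the lowest for 9 of the 11 tested coding genes. The labels do not say whether polyadenylated RNA was selected or rRNA removed before sequencing.

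Transfer RNAs carry amino acids to the mitochondrial ribosome and are short, modified and folded RNAs. Of the 22 tRNA genes, 8 had no count in any library, 9 more had 1 to 11 counts over all 4 libraries, and 5 were tested. All tRNA genes together had 615, 624, 1120 and 1139 counts, in DMSO 1, DMSO 2, Aβ40 1 and Aβ40 2. Of these counts mt-Tn, mt-Tc and mt-Tp made up 95.9%, 92.1%, 96.4% and 96.6%. All 3 genes lie on the minus strand, which carries 8 of the 22 tRNA genes. Whether the counts kept the strand is not given, so reads from plus-strand RNA over these genes may be among them.

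The sequences of these tRNA genes, with the anticodon in capitals, are shown with those of mt-Ta and mt-Ty because mt-Ta, mt-Tn, mt-Tc and mt-Ty follow one another on the same strand (MT:5018-5086, 5089-5159, 5192-5257 and 5260-5326), and mt-Tp lies apart at MT:15356-15422. The anticodons were sought from the codons of the amino acid that each tRNA is named for. The match in a loop closed by a stem of 5 base pairs, G-T pairs allowed, was marked. The sequences come from GENCODE M21 (GRCm38) and are written 5′ to 3′ along the minus strand.
mt-Ta: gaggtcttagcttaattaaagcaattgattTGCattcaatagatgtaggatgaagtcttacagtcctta
mt-Tn: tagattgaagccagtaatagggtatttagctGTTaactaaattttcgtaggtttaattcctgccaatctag
mt-Tc: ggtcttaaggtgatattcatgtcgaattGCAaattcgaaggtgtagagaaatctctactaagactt
mt-Ty: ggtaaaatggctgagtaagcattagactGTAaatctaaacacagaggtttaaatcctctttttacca
mt-Tp: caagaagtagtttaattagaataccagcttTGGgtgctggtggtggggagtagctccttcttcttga

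mt-Tn, the asparagine tRNA, was at 13.3 and 8.39 CPM with DMSO and 24.7 and 24.8 CPM with Aβ40. mt-Tc, the cysteine tRNA, was at 10.2 and 8.87 CPM with DMSO and 20.1 and 21.4 CPM with Aβ40. In both the Aβ40 pair was tight and lay clear of the DMSO pair. The log2 fold changes were 1.19 (SE 0.26, adjusted p = 0.187) for mt-Tn and 1.12 (SE 0.22, adjusted p = 0.137) for mt-Tc, the smallest adjusted p of any mitochondrial gene, at rank 74 of all genes tested. Over the alternatives with all 4 libraries, the adjusted p ran from 0.00140 to 0.321 for mt-Tn and from 0.00408 to 0.321 for mt-Tc, and leaving out single libraries moved the log2 fold change of mt-Tn between 0.89 and 1.56 and that of mt-Tc between 1.01 and 1.22.

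Their neighbours on the same strand had almost no counts. mt-Ta, the alanine tRNA, had 0, 0, 3 and 3 counts, and mt-Ty, the tyrosine tRNA, 0, 0, 4 and 0. mt-Tp, the proline tRNA, was at 8.09 and 13.7 CPM with DMSO and 18.4 and 11.3 CPM with Aβ40, with overlapping groups and a log2 fold change of 0.45 (SE 0.33, adjusted p = 0.612) that was 0.06 without Aβ40 1 and 0.86 without DMSO 2. The other tested tRNAs were scarce: mt-Tw had 6, 20, 13 and 18 counts (log2 fold change 0.29, SE 0.80) and mt-Tl1 had 0, 25, 14 and 8 (-0.13, SE 1.26). mt-Tl1 was the only tested mitochondrial gene with a negative value. Its sign changed with the processing and with single libraries left out, and that of mt-Tw only when DMSO 1 was left out. The tRNA genes are too short for the search for nuclear copies, which asked for 100 aligned bases, so copies of them were not sought.

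The order of the genes by their spread within a group was much alike in the 2 groups, but not identical. DMSO 2 exceeded DMSO 1 3.22-fold for mt-Nd4, 2.39-fold for mt-Co1, 2.13-fold for mt-Nd5, 2.03-fold for mt-Atp6 and 1.70-fold for mt-Cytb, but 1.01-fold for mt-Nd6 and 0.705-fold for mt-Rnr2. Aβ40 1 exceeded Aβ40 2 1.94-fold for mt-Co1, 1.74-fold for mt-Nd5, 1.70-fold for mt-Nd4, 1.48-fold for mt-Cytb and 1.04-fold for mt-Nd6. The 3 genes that differed most were the same in both pairs, in another order, while mt-Rnr1, mt-Rnr2, mt-Nd3 and mt-Co2 were lower in DMSO 2 than in DMSO 1 and higher in Aβ40 1 than in Aβ40 2. Over the 13 coding and rRNA genes the log2 ratios had a Pearson r of 0.885 and a Spearman rho of 0.901, as a description, since the genes share their 4 libraries and some share reads. Over the 1836 genes with a mean level of 100 CPM or more the Pearson r was 0.415.

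**Figure D4:**
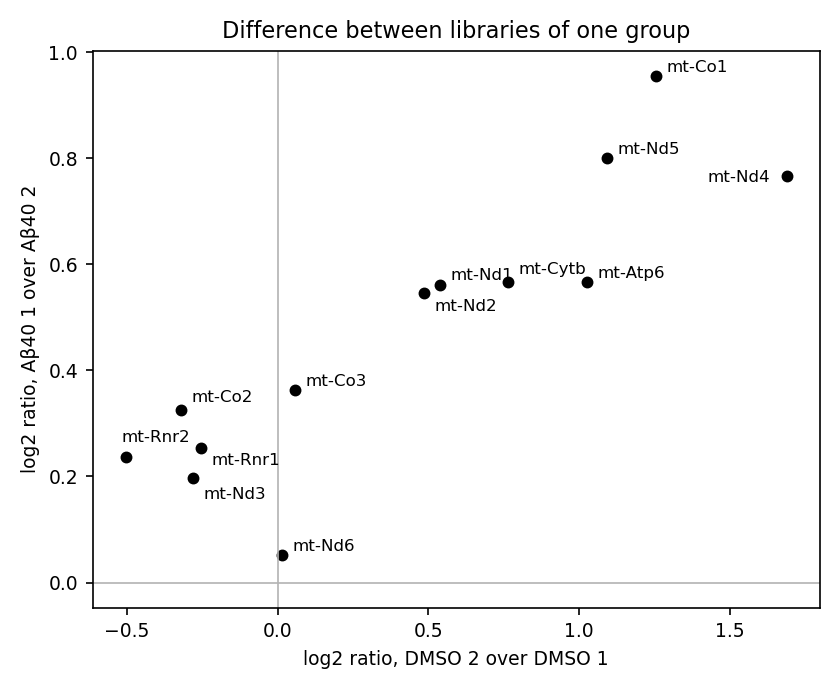
Log2 ratio between the DMSO libraries (2 over 1, horizontal) and between the Aβ40 libraries (1 over 2, vertical) for the 13 tested coding and rRNA genes, each point 1 gene. mt-Nd4, mt-Co1 and mt-Nd5 lie farthest from 0 on both axes and mt-Nd6 lies near the origin (0.01 and 0.05).

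Few abundant genes varied as much as the most variable mitochondrial messages. Of the 1836 genes at 100 CPM or more, mitochondrial genes included, 3 (0.163%) had a larger difference between the DMSO libraries than mt-Nd4. A larger one than mt-Co1 was found for 16 (0.871%), mt-Nd4 among them. Between the Aβ40 libraries, 1 gene exceeded mt-Co1. The median absolute log2 difference of these genes was 0.23 between the DMSO libraries and 0.14 between the Aβ40 libraries. DMSO 1 was the lowest library for 9 of 11 tested coding genes and Aβ40 1 the highest for 11 of 11, where 28.0% and 26.8% of all tested genes had these libraries at the bottom and top.

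The make-up of the coding RNA shifted with the same libraries. mt-Co1 took 30.8% and 41.1% of the coding counts in DMSO 1 and 2, and 47.2% and 39.8% in Aβ40 1 and 2. The share of mt-Nd6 ran the other way, at 18.3%, 10.3%, 7.21% and 11.4%. DMSO 1 thus had 1.68 mt-Co1 counts for each mt-Nd6 count, the lowest value, and Aβ40 1 had 6.54, the highest, with DMSO 2 (3.98) and Aβ40 2 (3.50) in between and in the reverse order of their groups. By contrast mt-Cytb held between 15.1% and 16.6% in every library.

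The nuclear subunits of the same complexes did not follow the mitochondrial ones across libraries. For complex I the mitochondrial subunits summed to 2101, 3104, 4463 and 3157 CPM in DMSO 1, DMSO 2, Aβ40 1 and Aβ40 2, and the nuclear subunits to 2460, 1472, 2176 and 2300 CPM. For complex IV the sums were 1310, 3036, 5821 and 3028 CPM against 1731, 1088, 1427 and 1582 CPM. DMSO 1 had the lowest mitochondrial and the highest nuclear sum in both complexes, and DMSO 2 had the lowest nuclear sum. The ratio of mitochondrial to nuclear sums in complex IV was 0.757, 2.79, 4.08 and 1.91, and in complex III it was 0.765, 1.81, 2.23 and 1.47.

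**Figure D5:**
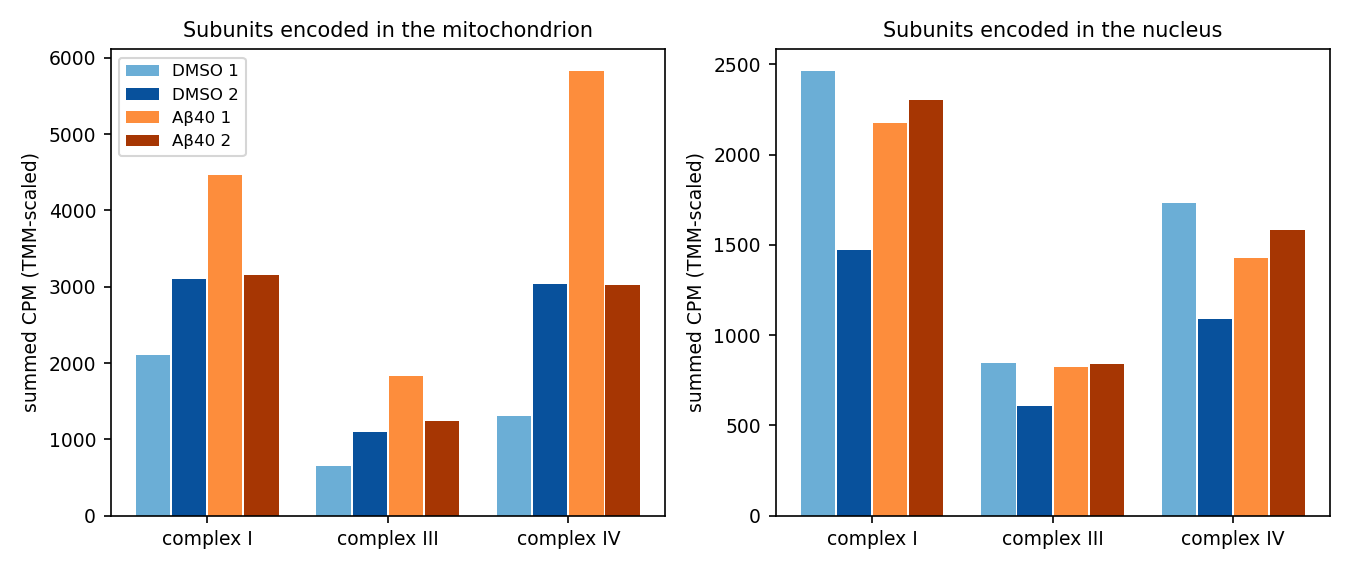
Summed CPM of the mitochondrial subunits (left) and of the nuclear subunits (right) of complexes I, III and IV, each bar 1 library, on linear axes that start at 0 and differ between the panels. In all 3 complexes the mitochondrial sum is lowest in DMSO 1 and the nuclear sum is lowest in DMSO 2.

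All 73 nuclear subunits were tested and none was called, with 54 above 0 and a median log2 fold change of 0.27. An unadjusted p under 0.05 was reached by 6 subunits of complex I, 2 of complex III, 0 of complex IV and 2 of complex V, and by 12.2% of all tested genes. DESeq2 called none of them and the likelihood ratio test called 1, Ndufb1-ps in complex I. Of the 73, 59 were lowest in DMSO 2, where 28.9% of all tested genes were, and the medians turned on that library. The median of the 37 nuclear complex I subunits was 0.23, or -0.20 without DMSO 2 and 0.69 without DMSO 1. For the 11 complex IV subunits it was 0.35, or -0.02 and 0.82, for the 16 complex V subunits 0.27, or -0.03 and 0.52, and for the 9 complex III subunits 0.30, or 0.12 and 0.63. The difference between mitochondrial and nuclear subunits was not tested. The most abundant members were Ndufv2 (0.23, SE 0.29) and Ndufb11 (0.34, SE 0.26) in complex I, Uqcrh (0.17, SE 0.29) and Uqcrfs1 (0.03, SE 0.21) in complex III, Cox4i1 (-0.34, SE 0.26) and Cox6a1 (-0.47, SE 0.23) in complex IV, and Atp5b (0.10, SE 0.18) and Atp5f1 (0.33, SE 0.25) in complex V.

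None of the nuclear genes listed for copying, cutting, modifying or translating mitochondrial RNA passed the edgeR quasi-likelihood test, and none was called by DESeq2, limma-voom or the likelihood ratio test. At an unadjusted p under 0.05, as 12.2% of all tested genes were, lay 2 genes of transcription, 5 of RNA processing, 3 of RNA modification, 8 and 3 of the large and small ribosomal subunits, 1 synthetase and 1 translation factor. The 10 genes of mitochondrial transcription had a median log2 fold change of 0.31 with 7 above 0, where 51.1% of all tested genes were above 0 and their median was 0.01. Among them Tfam, which packs mitochondrial DNA and starts its transcription, was at 56.1 and 47.3 CPM with DMSO and 62.2 and 60.04 CPM with Aβ40, a value of 0.24 (SE 0.18, adjusted p = 0.612), and Mterf3, a repressor of transcription, was at 0.15 (SE 0.19). For RNA processing and decay, 19 of 20 genes were tested, with a median of 0.10 and 13 above 0. Grsf1, an RNA granule protein, was at -0.0039 (SE 0.17), and Pnpt1, an exoribonuclease, was at 0.16 (SE 0.25). The 20 genes that modify tRNA and rRNA had a median of 0.31 with 16 above 0, among them Trnt1, which adds the CCA end to tRNAs, at 0.35 (SE 0.18), and Trub2 at -0.20 (SE 0.20).

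For translation in the organelle, the 47 tested genes of the large ribosomal subunit had a median of 0.21 with 31 above 0, which was -0.09 without DMSO 2, and the 30 of the small subunit a median of 0.27 with 23 above 0, which was 0.03 without DMSO 2. Mrpl33 and Mrpl18 were at -0.01 (SE 0.28) and 0.29 (SE 0.23), and Dap3 and Mrps14 at 0.23 (SE 0.24) and 0.31 (SE 0.23). The 19 aminoacyl-tRNA synthetases, which load tRNAs, had a median of 0.06, with Gars at 0.06 (SE 0.17) and Kars at 0.28 (SE 0.17). The 12 translation factors had a median of 0.16, with the membrane insertase Oxa1l at 0.30 (SE 0.18) and the elongation factor Tufm at 0.02 (SE 0.23).

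Genes tied to the amount of mitochondrial DNA or of mitochondria gave medians near or below 0. The 14 genes of DNA replication and the nucleoid had a median of -0.18 with 5 above 0, with the single-strand binding protein Ssbp1 at 0.34 (SE 0.21) and the thymidine kinase Tk2 at -0.15 (SE 0.21). Of 8 regulators of mitochondrial biogenesis 6 were tested, with a median of -0.12, and Gabpa, a transcription factor of nuclear respiratory genes, was at -0.11 (SE 0.16). The 12 outer membrane and matrix genes had a median of 0.04 with 10 above 0, where 51.1% of all tested genes were. The channel Vdac2 was at 0.03 (SE 0.17) and the citrate cycle enzyme Mdh2 at 0.02 (SE 0.17). Of 11 nuclear RNAs without poly(A) tails only Rn7sk had enough counts to be tested, at 0.48 (SE 0.34), or 1.09 without DMSO 1 and 0.04 without DMSO 2, and 8 were at 0 in all libraries.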

How the data were processed

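RNA was sequenced from 2 DMSO and 2 Aβ40 libraries. Alignment and counting tools, per the submitters' processing notes, include HISAT2 2.0.5 and featureCounts 1.5.0-p3, with the build mm10. For strandedness, annotation release and reads with several matches, the setting is not given in the sources used here. The authors deposited whole-number counts per gene and FPKM, both for 54532 genes. For the 4925 to 5238 genes with the most counts in each library, the deposited FPKM was checked to be the count over gene length and 1 effective size per library. For genes with fewer counts it was not checked. The deposited FPKM values were used for levels between genes.

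The deposited counts went into edgeR 4.0.16 under R 4.3.3: filterByExpr by group (13479 genes kept), TMM scaling, glmQLFit and glmQLFTest (2-sided, 2 residual degrees of freedom), Benjamini-Hochberg adjustment over all tested genes and a threshold of 0.05. Log2 fold changes are Aβ40 minus DMSO. The script was tested on simulated data. Class shares have exact (Clopper-Pearson) 95% intervals.

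Nuclear copies were sought with blastn 2.17.0 in 141730 nuclear transcripts of GENCODE M21, at 90% identity over 100 bases or more. That release places all 37 genes at the deposited positions. Nuclear sequence outside annotated transcripts was not used here. Sequences come from the same transcripts.

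All 37 genes are accounted for, with values for coding, rRNA and tested tRNA genes and, per nuclear list, for the 2 members of highest mean CPM if no member was called. mt-Ta and mt-Ty, and Gm10222 and the copies beyond the list, were named after their values were seen. The members, the 24 gene lists and the tests were chosen with earlier results of these data known. Alternatives were other scalings, filters and tests (DESeq2 1.42.0, limma 3.58.1 with voom, and limma on log2 of FPKM + 1 or + 0.1), a replicate block and leaving out each library.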

Additional observations from a re-analysis of the deposited data

How the results depend on the processing

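No mitochondrial gene was called with median-ratio, upper-quartile, library-size or nuclear-gene scaling, limma-voom, a mean count of at least 10, or coding and mitochondrial genes alone, and the count over all genes stayed within 1.5 times 17. DESeq2 called 132 genes (2 mitochondrial), edgeR's likelihood ratio test 221 (2) and no filter on low counts 255 (6: mt-Atp6, mt-Co1, mt-Cytb, mt-Nd4, mt-Tc and mt-Tn). Limma on log2(FPKM + 1) and on log2(FPKM + 0.1) called 0 genes each. Leaving out each library in turn gave 0 to 1276 genes and 0 to 11 mitochondrial genes. The cause of these changes was not tested. Each fit without a library had a single residual degree of freedom.

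The replicate block raised the count to 27 genes (0 mitochondrial). Whether the numbers pair the samples is not given in the labels. The deviations of DMSO 1 and Aβ40 1 had a correlation of -0.187, and those of DMSO 1 and Aβ40 2 had 0.187. With 2 libraries per group these values mirror each other, so they cannot decide the pairing. The crossed pairing, a block added after seeing the data, called 721 genes, 9 of them mitochondrial.

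The difference in mitochondrial share of counts (0.471 points) and the median of the coding genes (0.70) kept their direction wherever they were computed. Neither was computed for the crossed pairing. Without single libraries the share difference lay between 0.221 and 0.720 points and the median between 0.35 and 0.98. Of the tested genes, 16 kept their sign under every setting other than the crossed pairing, which was not included here. mt-Tw ran from -0.34 (without DMSO 1) to 1.39 (without DMSO 2). mt-Tl1 turned to 1.66 with limma-voom, 0.67 with the replicate block, 1.01 and 2.54 on log2(FPKM + 1) and log2(FPKM + 0.1), and between -1.13 and 6.50 without single libraries. mt-Nd4l, mt-Atp8 and 17 tRNA genes had too few counts to be tested, and a difference in them was not detectable here.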

Other observations

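Other nuclear copies of mitochondrial genes, less alike than those on chromosome 1, had few or no counts. Gm13340, on chromosome 2 (22588103 to 22589647), is 97.6% identical to mt-Co1 over all its 1545 bases and had 1, 11, 20 and 8 counts in DMSO 1, DMSO 2, Aβ40 1 and Aβ40 2, where mt-Co1 had 23340, 55506, 97996 and 56546. Next to it, Gm13341 (95.9% identical to mt-Co2) had 0, 0, 9 and 7 counts, and Gm13339 (96.7% identical to part of mt-Nd2) had 3, 0, 6 and 9. Gm11410, a pseudogene of mt-Cytb on chromosome 4 with 92.9% identity over 1142 bases, had 0 counts in all 4 libraries, and Gm11408, which is 93.6% identical to mt-Nd6, had 1 count in DMSO 1 and 0 in the others. In all, 11 mitochondrial genes had 17 copies among the annotated transcripts, with the tRNA genes not covered by the search. Gm10222, the copy of mt-Nd4l on chromosome 1, had 0, 5, 4 and 6 counts.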
